A study of Mus musculus with 16 samples.

Results

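Ifng, Tnf and Lta encode interferon gamma, tumor necrosis factor and lymphotoxin alpha, secreted effector cytokines of activated CD8+ T cells. These 3 genes were taken by symbol from a deposited table of 9223 genes, and all 3 were present. They are described in 5727 single T cells from the draining lymph node, skin, lung and liver, first by level, then by how often they were found in the same cell, and last by the genes that went with them. The cells were Pmel CD8 T cells, which carry a transgenic receptor for the melanocyte antigen gp100 and the congenic marker Thy1.1. Their hosts were C57BL/6 mice aged 16 weeks with melanoma-associated vitiligo, in which T cells destroy melanocytes, sampled 45 days after tumor surgery. All groups therefore share the strain, the disease, the antigen receptor and the time point and differ in tissue, and no group without vitiligo is among the samples used here. Each tissue has 4 samples whose titles differ in a lane-like ending, and no label names them as different animals, so a tissue is treated as 1 library. The sources used here do not give the number of animals pooled or say whether cells were stimulated before capture.

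Interferon gamma acts on nearly all cells through a receptor of IFNGR1 and IFNGR2 chains, raises antigen presentation and induces chemokines that draw more T cells into the skin in vitiligo. Tumor necrosis factor signals through TNFR1 and TNFR2, encoded by Tnfrsf1a and Tnfrsf1b. Lymphotoxin alpha is secreted as a homotrimer that binds the same receptors, or is held at the membrane with lymphotoxin beta, the product of Ltb, as a ligand of the lymphotoxin beta receptor. Transcription of these genes follows antigen receptor signals through NFAT, AP-1 and NF-kB factors, and their mRNAs are kept short-lived by proteins that bind AU-rich sequence in the 3′ untranslated region.

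In GRCm38, Ifng lies at chr10:118441046-118445892 on the forward strand and has 4 exons. Tnf, at chr17:35199381-35202007, and Lta, at chr17:35203165-35205351, are neighbors on the reverse strand, with 1157 bases between them, and Ltb lies 3060 bases to the other side of Tnf on the forward strand. The 250 bases before each start site, from RefSeq promoters on GRCm38.p6 and read on the gene's strand, are shown because Ifng and Tnf had the same order across tissues and Lta another. Capitals mark GGAAA or its reverse complement TTTCC, the core that NFAT factors bind, and the letters TATAAA. The windows lie at chr10:118440796-118441045 on the forward strand for Ifng, and on the reverse strand at chr17:35202008-35202257 for Tnf and chr17:35205352-35205601 for Lta.
Ifng: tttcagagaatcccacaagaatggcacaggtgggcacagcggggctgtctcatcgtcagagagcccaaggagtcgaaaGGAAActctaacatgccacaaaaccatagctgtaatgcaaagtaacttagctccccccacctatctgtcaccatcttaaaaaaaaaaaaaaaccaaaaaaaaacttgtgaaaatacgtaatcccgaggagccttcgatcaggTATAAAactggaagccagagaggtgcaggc
Tnf: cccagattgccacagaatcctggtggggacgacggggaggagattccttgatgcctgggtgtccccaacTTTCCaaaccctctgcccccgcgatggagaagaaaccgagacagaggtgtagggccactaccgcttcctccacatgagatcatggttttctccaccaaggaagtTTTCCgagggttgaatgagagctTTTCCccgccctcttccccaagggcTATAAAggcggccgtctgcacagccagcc
Lta: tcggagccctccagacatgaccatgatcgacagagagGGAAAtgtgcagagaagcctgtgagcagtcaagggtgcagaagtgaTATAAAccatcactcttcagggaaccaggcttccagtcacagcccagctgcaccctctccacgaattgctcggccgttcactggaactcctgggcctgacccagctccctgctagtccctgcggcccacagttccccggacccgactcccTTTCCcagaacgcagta
The NFAT core occurred once in the Ifng window, starting 172 bases before the start site. Tnf had 3 matches, at 181, 77 and 54 bases, and Lta had 2, at 213 and 17 bases. TATAAA began 30 bases before the start of Ifng, 29 before Tnf and 167 before Lta, on the gene's strand. Of 32851 RefSeq mouse promoters cut to the same window, 55.6% held the NFAT core on either strand and 7.59% held TATAAA on the gene's strand. The motifs TGANTCA of AP-1, TGACGTCA of CREB and ATF factors, and the NF-kB motif, searched on both strands, had no match in the 3 windows. They were present in 6.75%, 1.55% and 1.41% of all promoters, and an NF-kB motif can overlap an NFAT core. Such a match describes letters, not a bound site.

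The 3′ untranslated regions are shown by the 30 bases richest in ATTTA, the pentamer at the center of AU-rich elements, because a gene for a protein that binds such elements, Zfp36, was among the marks of cells with several of the cytokines. Capitals mark ATTTA, and the windows, from GENCODE M21 transcripts on GRCm38, lie at chr10:118445330-118445359 (forward), chr17:35199679-35199708 (reverse) and chr17:35203408-35203437 (reverse).
Ifng: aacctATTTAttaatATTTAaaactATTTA
Tnf: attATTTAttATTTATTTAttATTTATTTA
Lta: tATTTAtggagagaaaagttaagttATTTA
Over the whole region Ifng had 6 matches in 631 bases, Tnf 8 in 764 and Lta 3 in 572. That is 9.51, 10.5 and 5.24 matches per 1000 bases. Among 8424 genes of the table with a region of at least 100 bases, 0.712% had a density at least that of Ifng, 0.487% at least that of Tnf and 5.29% at least that of Lta.

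The summed counts were 3292210 for 1224 skin cells, 8072278 for 2322 lung cells, 1928185 for 556 liver cells and 4532333 for 1625 lymph node cells, with medians of 2518 to 3096 counts per cell. The level of a gene is its share of all counts in the pooled cells of a tissue, scaled to CPM (counts per 1000000). For shares of cells with a count, every cell was first reduced at random to 1886 counts, called equal depth, which left 1083 skin, 2049 lung, 529 liver and 1494 lymph node cells. All intervals are exact, at 95%, and cover only counting error. No difference was tested and no value has a replicate, since a tissue is 1 library. All 10 CD8 T cell markers were present in each tissue, and no melanocyte, hepatocyte, fibroblast or mast cell marker was in the table. Lyz2 of myeloid cells, Igkc and Cd79a of B cells and Scgb1a1 of airway epithelium, which T cells should lack, were found in 0 skin cells at equal depth, up to 5.37% of lung cells (Lyz2), 2.08% of liver cells (Scgb1a1) and 1.87% of lymph node cells (Igkc). These shares serve as the background of a library. They are from 4 markers and do not cover every other cell type: the 2 measured keratinocyte markers, Krt10 and Epcam, had together 16.3 CPM in lymph node, 14.9 in skin, 3.34 in lung and 2.07 in liver. The 5 measured myeloid markers summed to between 238 and 290 CPM in each tissue, with Lyz2 and Csf1r at 0 in skin. The single measured marker of gamma delta T cells, Trdc, had 62.0 CPM in skin, 81.4 in lymph node, 27.5 in liver and 7.06 in lung, and that of CD4 T cells, Cd40lg, which CD8 T cells can also express, had 146, 54.9, 11.9 and 11.9 CPM. The part of such cells in the results was not tested. In the table's header a 2 follows the tissue's name for skin and lymph node but not for lung or liver, so a comparison across these pairs also crosses that unexplained difference. Skin, lung and liver were digested with enzymes and the lymph node was not. A barcode occurred in 2 tissues 19 times, which touches 38 cells, and no ratio or share of the 3 genes moved beyond its interval without them.

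Ifng was the most abundant of the 3 genes in every tissue, and it was far higher in skin than elsewhere. Its pooled level was 2245 CPM in skin (2194 to 2297), 396 in lung (382 to 410) and 379 in liver (352 to 408), and 171 in the lymph node (160 to 184). A count of Ifng was found in 71.3% of skin cells (68.5 to 74.0). Lung followed at 41.7% (39.6 to 43.9) and liver at 37.1% (32.9 to 41.3), and lymph node had 22.2% (20.1 to 24.4). Without thinning these shares were 75.9%, 55.1%, 50.2% and 27.9%. The order was therefore skin, then lung and liver, which did not differ beyond counting error, then lymph node. All 4 shares lay above the background of their library.

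Tnf followed the same order at lower levels. It had 204 CPM in skin (189 to 220) and 34.7 in lung (30.7 to 39.0), with 30.1 in liver (22.8 to 38.9) and 24.5 in the node (20.1 to 29.5). A count was found in 25.7% of skin cells (23.1 to 28.4), and in 5.27% of lung, 6.05% of liver and 4.08% of lymph node cells. Skin stood apart, and the intervals of neighboring tissues among the others overlapped in level and in share. The lung share did not exceed that of Lyz2 in the same library and is not shown to be above background. Unthinned, the shares were 31.0%, 9.82%, 9.17% and 6.15%.

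Lta had a different order, with skin and lymph node above lung and liver. Its level was 42.8 CPM in skin (36.1 to 50.5), 31.3 in lymph node (26.4 to 36.9), 15.1 in lung (12.6 to 18.0) and 11.9 in liver (7.56 to 17.9). The share of cells was 5.17% in skin (3.93 to 6.66), 4.48% in lymph node (3.49 to 5.66), 2.54% in lung and 1.70% in liver. Skin and lymph node overlapped, as did lung and liver. In lung and liver the share lay below that of Lyz2 and Scgb1a1 in turn, so expression of Lta there is not shown. This order is also the division of the libraries by column name, and the 2 cannot be told apart.

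**Figure D1:**
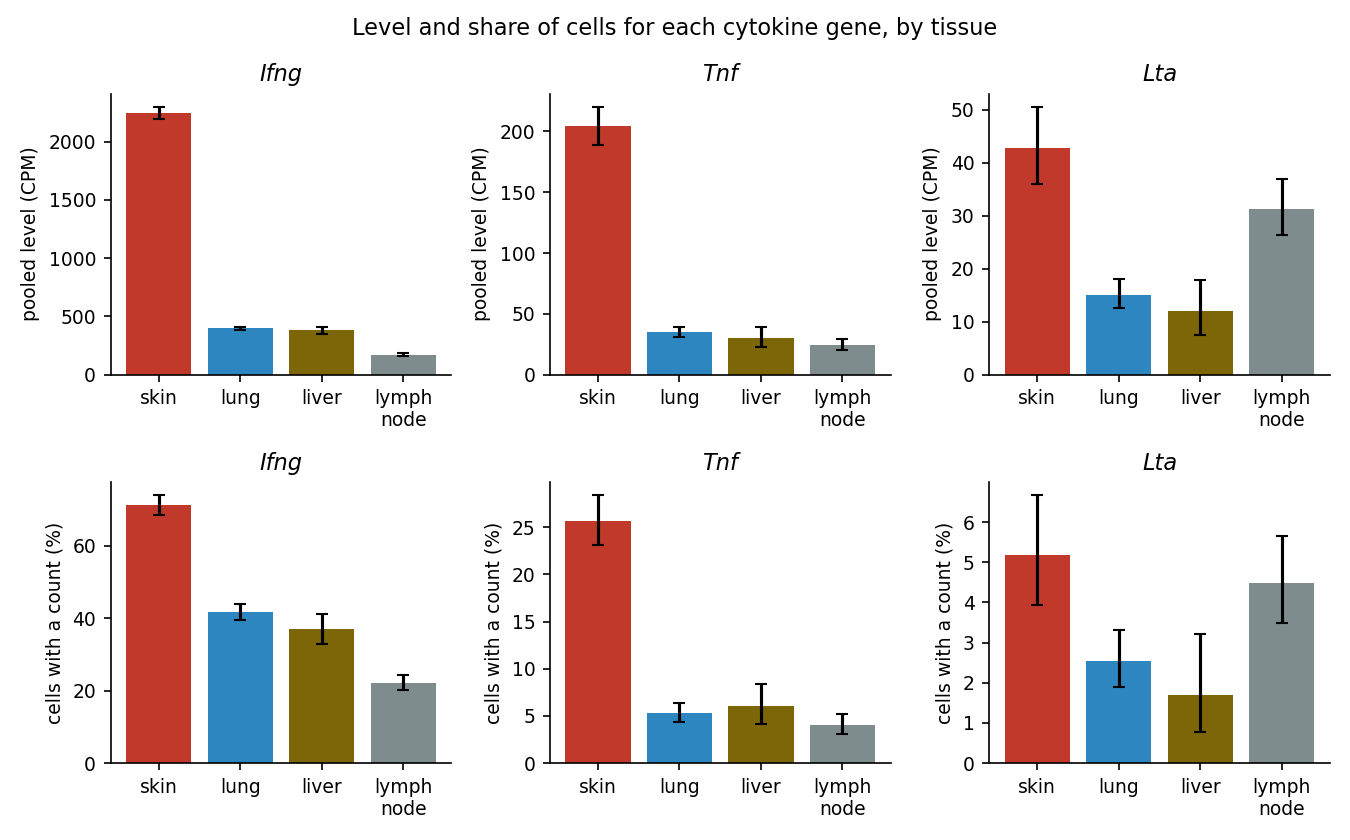
Pooled level in CPM (top) and share of cells with a count at equal depth in percent (bottom) for Ifng, Tnf and Lta in the 4 tissues, with exact 95% intervals for counting error from 1 library per tissue. Skin is the highest bar for each gene, with Ifng at 2245 CPM and 71.3% of cells, and lymph node is lowest for Ifng and Tnf but stands next to skin for Lta.

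For Ifng and Tnf the ratio of skin over lymph node was the largest of the 3 ratios of skin over another tissue, and for Lta it was the smallest. Ifng was 13.1-fold higher (12.2 to 14.1), Tnf 8.33-fold higher (6.81 to 10.3) and Lta 1.37-fold higher (1.08 to 1.74). Of 8961 genes with at least 20 counts in this pair, 5.59% were at least 2-fold higher in skin, 10.3% at least 2-fold lower, and the median log2 ratio was -0.20. Over lung, skin was 5.67-fold higher in Ifng (5.44 to 5.91), 5.88-fold in Tnf (5.11 to 6.79) and 2.83-fold in Lta (2.21 to 3.64), where 15.7% of genes were at least 2-fold higher and 6.37% lower. The Lta value was 1.86-fold when each cell counted equally rather than each count. Over liver the folds were 5.92 (5.49 to 6.40), 6.79 (5.18 to 9.03) and 3.59 (2.30 to 5.85), against 16.4% of genes at least 2-fold higher and 5.07% lower. The folds of Ifng and Tnf in skin were thus nearer to each other than to that of Lta, whichever tissue skin was set against.

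Lung and liver had more Ifng and less Lta than lymph node. In lung Ifng was 2.31-fold higher (2.14 to 2.50) and Tnf 1.42-fold higher (1.13 to 1.78), with 3.58% of genes at least 2-fold higher. Lta was 2.07-fold lower in lung (1.62 to 2.66), with 18.3% of genes at least 2-fold lower and a median log2 ratio of -0.41 over all genes. In liver Ifng was 2.21-fold higher (1.99624 to 2.45), against 3.92% of genes, and Lta was 2.63-fold lower (1.68 to 4.28), against 22% of genes. Scaling by the median gene brought Lta to 1.57-fold lower in lung and 1.95-fold lower in liver. Tnf in liver over lymph node had an interval that held equality, 1.23-fold (0.878 to 1.70). Between lung and liver all 3 intervals held equality: 1.04-fold for Ifng (0.964 to 1.13), 1.15-fold for Tnf (0.866 to 1.56) and 1.27-fold for Lta (0.807 to 2.07), where 3.41% of genes were at least 2-fold higher and 2.56% lower.

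The partner and the receptors of these cytokines did not share one pattern. Ltb, the membrane partner of lymphotoxin alpha, was highest in lymph node at 1939 CPM and lay between 689 and 713 CPM in the other tissues. Ifngr1 had 379 CPM in skin, 364 in liver, 245 in lung and 108 in lymph node, whereas Ifngr2, the other chain of the receptor, had 3 to 13 counts per tissue. Tnfrsf1b was highest in skin, at 98.1 CPM against 24.8 to 47.4, and Tnfrsf1a highest in lymph node, at 36.4 CPM against 15.6 to 24.6. Il2, another cytokine of activated T cells, had 152 CPM in skin, 53.6 in lymph node, 16.4 in lung and 18.2 in liver. As for Lta, skin was highest and lymph node next.

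Gene lists were read for skin over lymph node against the 5.59% of all genes that were at least 2-fold higher and the 10.3% that were at least 2-fold lower. Among 9 measured transcription factors of the Ifng locus, 2 were at least 2-fold higher in skin and the median log2 ratio was 0.49. They were Tbx21, which encodes T-bet, at 190 against 58.9 CPM, and Bhlhe40, at 310 against 81.0 CPM. Id2 was at least 2-fold lower, at 888 against 2468 CPM. NFAT, AP-1, NF-kB and other early factors were at least 2-fold higher in skin for 13 of 21 measured (median 1.30), and Nr4a1, an early gene of receptor signaling, had 1395 CPM in skin, 167 in liver, 23.5 in lung and 11.9 in lymph node. Of the heat shock genes, which tissue dissociation can induce, 3 of 10 were at least 2-fold higher (median 0.76). The part of dissociation in the cytokine levels was not tested.

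The listed genes of mRNA decay and stability had no common direction between skin and lymph node. Of 13 measured genes of mRNA decay and stability, 4 were at least 2-fold higher in skin than in lymph node and 2 at least 2-fold lower, with a median of -0.24, beside 5.59% and 10.3% of all genes. The 4 were Zfp36, which encodes tristetraprolin, at 501 against 73.0 CPM, its relatives Zfp36l1 and Zfp36l2, and Zc3h12a, which encodes regnase-1, at 173 against 24.1 CPM. Over lung, all 13 were higher in skin and 7 at least 2-fold, with a median log2 ratio of 1.12 against 0.21 over all genes. The T cells' own interferon gamma targets were mixed. Of 12 measured, 3 were at least 2-fold higher in skin than in lymph node, Irf8, Socs1 and Cxcl10, and 4 at least 2-fold lower, among them Gbp2, a guanylate-binding protein gene, at 28.9 against 63.1 CPM. For skin over lymph node the shares over all genes were again 5.59% and 10.3%.

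The counts of Ifng in skin were spread very unevenly over cells. A skin cell with Ifng held a mean of 7.96 counts and a median of 3, before thinning, and the highest held 513 of its 5938 counts. The 10% of positive skin cells with the most counts held 53.9% of all Ifng counts in skin. Elsewhere, for lung, liver and lymph node in turn, the mean was 2.50, 2.62 and 1.72 and the highest cell had 44, 31 and 20 counts. At equal depth 102 skin cells (9.42%) had 10 or more counts of Ifng, against 4 lung cells, 2 liver cells and 0 of 1494 lymph node cells, which allows a share of up to 0.201% when 3 cells are taken as the limit of a count of 0. The variance of Ifng over its mean at equal depth was 19.5 for skin, and for lung 2.32, liver 2.89 and lymph node 1.86. Without the single highest cell of each tissue the ratio of skin over lung was 5.35-fold.

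**Figure D2:**
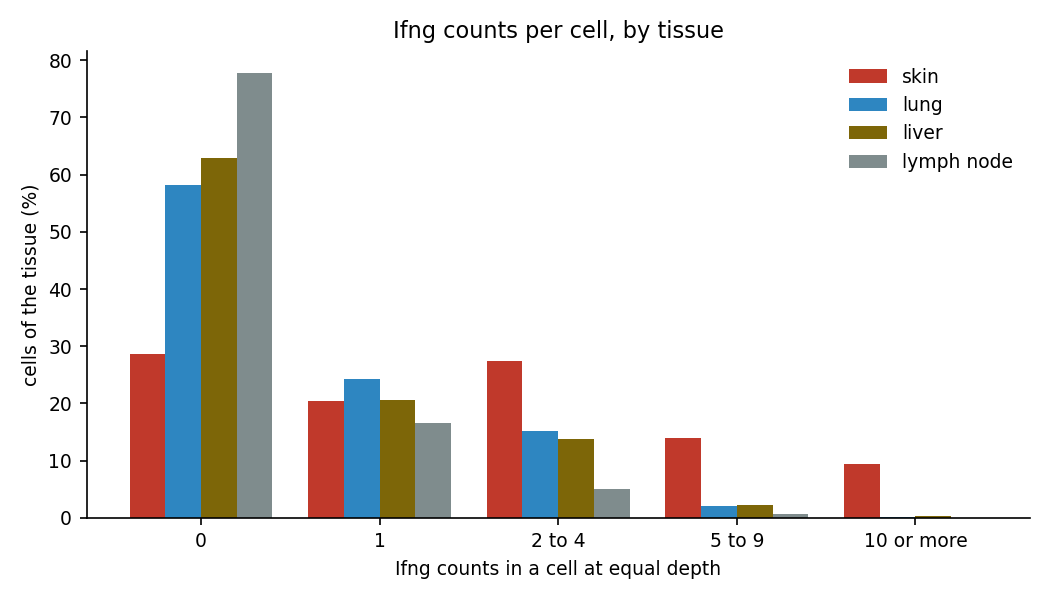
Share of the cells of each tissue in percent (vertical axis) by the number of Ifng counts in a cell thinned to 1886 counts (horizontal axis), with 1 bar per tissue. Cells with 5 or more counts are mostly from skin, where 9.42% of cells had 10 or more.

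Tnf and Lta had fewer counts per cell. A cell with Tnf held a mean of 1.77 counts in skin, where 1 cell had 44, and of 1.11 to 1.23 elsewhere. At equal depth 73.7% of the Tnf-positive skin cells had a single count. Lta-positive cells held a mean of 1.62 counts in skin and 1.35 in lymph node, and 1.31 in lung and 1.21 in liver, with at most 16, 6, 7 and 2 counts in a cell in that order. The cells at the extremes were not the same cells. The skin cell with 513 Ifng counts had 0 counts of Tnf and of Lta, but 454 of the chemokine Ccl3, 301 of Ccl4 and 182 of Gzmb. The cell with 44 Tnf counts had 4 of Ifng and 103 of Ccl4. The cell with 16 Lta counts had 92 of Ifng, 134 of Ccl3 and 23 of the cytokine Il13. None of these 3 cells was called a doublet.

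Several of the 3 genes were found together mainly in skin. At least 1 was detected in 77.5% of skin cells, 45.6% of lung, 41.4% of liver and 28.2% of lymph node cells. Exactly 1 was found in 53.6%, 41.8%, 38.2% and 25.8%. At least 2 were found in 23.8% of skin cells (258 cells, 21.3 to 26.5), 3.81% of lung cells (78), 3.21% of liver cells (17) and 2.41% of lymph node cells (36). All 3 were found in 9 skin, 3 lung, 1 liver and 2 lymph node cells. The usual pair in skin was Ifng with Tnf, alone in 220 cells, followed by Ifng with Lta in 27 and Tnf with Lta in 2. In lymph node Ifng with Lta (16 cells) was as frequent as Ifng with Tnf (15 cells).

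**Figure D3:**
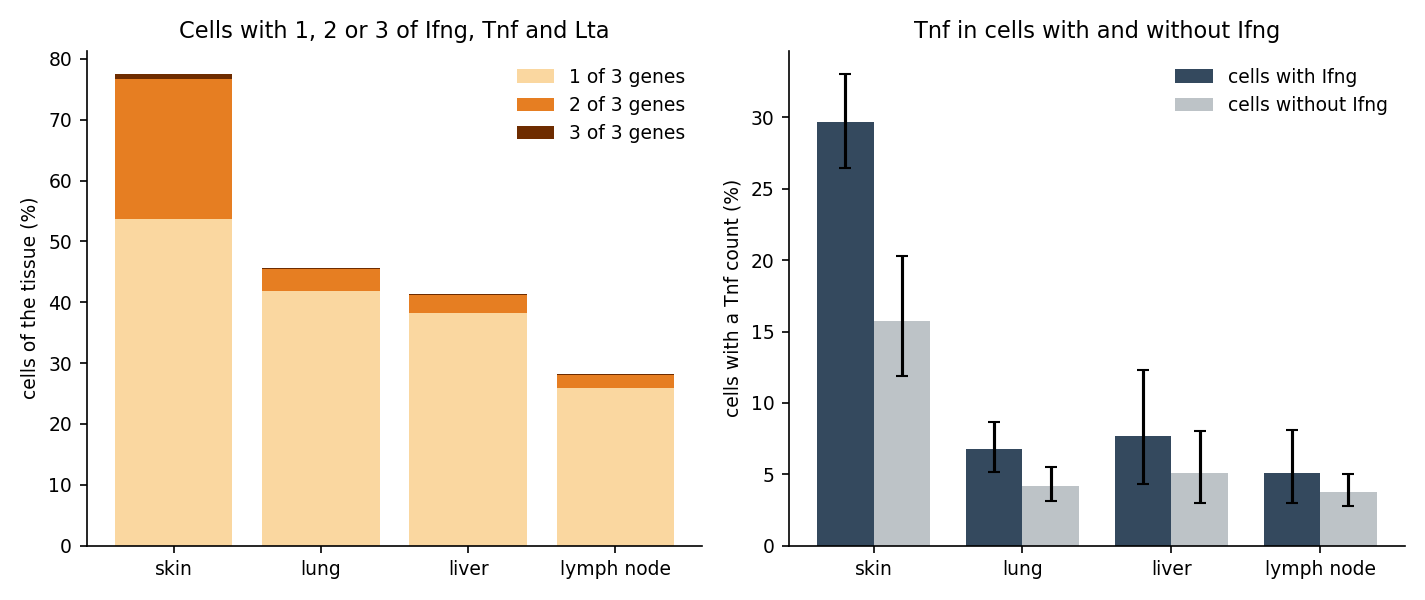
Left, share of cells in percent with exactly 1, 2 or 3 of Ifng, Tnf and Lta at equal depth, stacked by tissue; right, share of cells with a Tnf count among cells with and without Ifng, with exact 95% intervals. Skin has 23.8% of cells with 2 or 3 genes, and its paired bars on the right are at 29.7% against 15.8%, with intervals that do not overlap.

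Tnf was found more often in skin cells with Ifng than in those without. The share was 29.7% (26.5 to 33.0) against 15.8% (11.9 to 20.3). The same shares were 6.78% (5.19 to 8.68) against 4.19% (3.12 to 5.48) in lung, 7.65% against 5.11% in liver and 5.12% against 3.79% in lymph node, with overlapping intervals in these 3 tissues. Relative to the product of the separate shares, cells with both were 1.16 times as frequent in skin, and 1.29 (lung), 1.27 (liver) and 1.25 times (lymph node) elsewhere. This measure has a lower ceiling where Ifng is found in more cells, as in skin, so the tissues cannot be ranked by it. Lta did not go with Ifng in skin, at 4.66% of cells with Ifng (3.29 to 6.40) and 6.43% of cells without (3.97 to 9.76). Nor did it go with Tnf there, at 3.96% against 5.59%. In lung Lta was found in 8.33% of cells with Tnf (3.88 to 15.2) and 2.22% of cells without (1.61 to 2.97), although this rests on 9 cells with both.

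In skin the share of cells with Tnf differed between cells without and with Ifng, and showed no further difference beyond the intervals by the amount of Ifng. Skin cells were divided by Ifng counts at equal depth into 0 (311 cells), 1 (221), 2 to 4 (297), 5 to 9 (152) and 10 or more (102). The share with Tnf was 15.8%, 28.5%, 28.6%, 34.2% and 28.4% in turn, with overlapping intervals from 1 count upward. The share with Lta was 6.43%, 4.52%, 4.04%, 4.61% and 6.86%, all overlapping. Nfkbid, which encodes an atypical inhibitor of the NF-kB family, was found in 37.6% of the cells with no Ifng and in 47.5%, 58.6%, 73.7% and 81.4% of the further groups. Ccl4 went from 50.8% to 74.5% of cells, Ccl3 from 8.04% to 22.5% and Hspa1a from 11.9% to 24.5%. Xcl1, at 19.9% and 19.6% in the lowest and highest group, did not. Gzmb, which encodes granzyme B, was at 33.4% and 46.1%, with 34.2% to 37.1% between. Pooled levels of Ccl1 and Xcl1 are not read here, since a single cell gave 237 of 360 Ccl1 counts and 211 of 308 Xcl1 counts in the highest group.

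**Figure D4:**
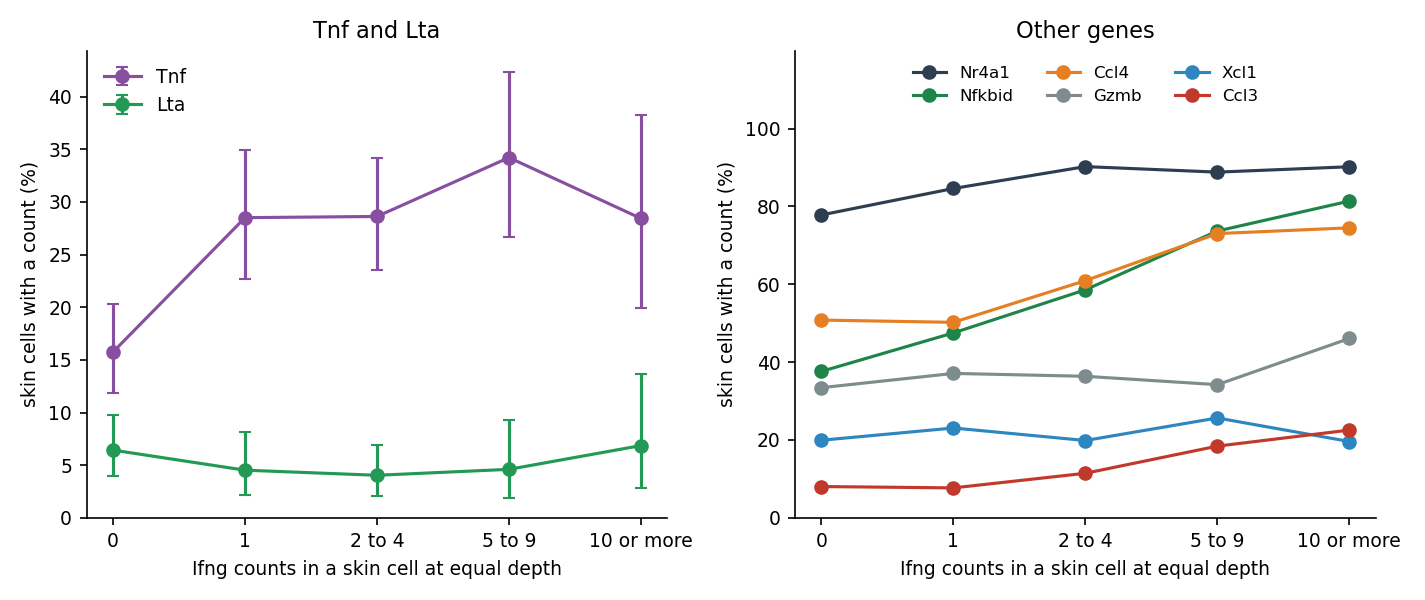
Share of skin cells in percent with a count of Tnf or Lta (left, with exact 95% intervals) and of 6 other genes (right, no intervals drawn) by the number of Ifng counts in the cell at equal depth. Tnf is at 15.8% with 0 counts and between 28.4% and 34.2% from 1 count upward, Lta stays between 4.04% and 6.86%, and Nfkbid goes from 37.6% to 81.4%.

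Skin cells with 2 or 3 of the cytokine genes were compared with the 244 skin cells with none over all other genes, of which 4534 had at least 20 counts. The naming rule gave Tnfsf14, Ccl3, Hspa1a, Ccl4, Ccl1, Nfkbid, Gadd45b and Zfp36 as higher in the cells with several, and Phf11b, H1f0, Ifitm1, Ifitm2 and Gzma as lower. At least 2-fold higher were 2.03% of genes and at least 2-fold lower 2.38%, and no test is possible between cells of 1 library. Tnfsf14, which encodes LIGHT, a ligand of the lymphotoxin beta receptor and HVEM, was 4.02-fold higher (1.83 to 10.05), from 34 and 8 counts, and was found in 10.1% against 3.28% of cells. Ccl4, which encodes an inflammatory chemokine, was 2.81-fold higher (2.55 to 3.10) and was found in 68.2% against 47.5% of cells. Nfkbid was 2.41-fold higher (1.98 to 2.94), in 67.8% against 34.4% of cells. Gadd45b, a stress-induced gene downstream of NF-kB, was 2.39-fold higher (2.11 to 2.70), in 84.9% against 52.0% of cells, and Zfp36 was 2.21-fold higher (1.81 to 2.71). Ccl3, which encodes a related chemokine, was 3.20-fold higher (2.20 to 4.74), and 1.48-fold when only Ifng and Tnf were counted. Hspa1a, an inducible heat shock gene, was 2.85-fold higher (2.16 to 3.80). All but 2 of the 258 cells with several held Ifng, so the contrast also sets cells with Ifng against cells without. Cells with Ifng alone had 411 CPM of Hspa1a, against 427 with several and 150 with none. Their Ccl3 level was 499 CPM, against 257 and 80.4. They lay between for Ccl4 (2510 against 3366 and 1200) and Gadd45b (1378 against 1876 and 787). Their Tnfsf14 level, 18.5 CPM, was near the 17.4 of cells with none.

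Ccl1, which encodes a ligand of CCR8, also passed the naming rule at 2.78-fold (2.34 to 3.31), but this rested on cells with Lta. Cells with Ifng and Tnf alone had 323 CPM of Ccl1 and cells with none 387 CPM, and cells with Ifng and Lta alone had 6755 CPM. Within those 27 cells a single cell gave 268 of 344 counts. With Lta left out of the definition the Ccl1 ratio turned to 1.88-fold lower. That step also moved the 18 cells with Lta alone, with 206 Ccl1 counts, into the reference group. The 244 cells with none had 178 counts. Of these 178 a single cell gave 119, and of the 206 a single cell gave 85. The 1.88-fold thus rests in part on the changed reference. On the lower side were Phf11b (3.08-fold, 1.51 to 6.76), the linker histone gene H1f0 (3.01-fold, 1.56 to 6.17), Ifitm1 (2.11-fold, 1.86 to 2.38), Ifitm2 (2.07-fold, 1.59 to 2.70) and Gzma, which encodes granzyme A (2.07-fold, 1.82 to 2.35). Gzma was found in nearly the same share of both groups, 24.8% against 27.5%, so the lower level came from fewer counts per positive cell.

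By list, the early factors stood higher in skin cells with several of the cytokines for 18 of 19 measured genes, 12 of them with an interval above equality. Their median log2 ratio was 0.47 against -0.05 over all genes. At that median, at least as many of all genes were lower as higher, which also holds beside the lists that follow. The share of all genes with an interval above equality is not given here, so the 12 have no background. Jun, Egr1 and Egr2 were at least 2-fold higher, as were 2.03% of all genes. Of the heat shock genes 9 of 10 stood higher (median 0.51). Of 17 other cytokines, chemokines and death ligands 12 were higher, with a median of 0.82. At least 2-fold higher were 6, beside 2.03% of all genes: Csf2, Ccl1, Ccl3, Ccl4, Tnfsf9 and Tnfsf14. The Csf2 interval, from 15 and 5 counts, held equality (0.980 to 9.98). Ccl1 was lower when Lta was left out, which also changed the reference cells. All 5 measured cytotoxic genes were lower (median -0.97), with Gzmb at 483 against 726 CPM. For Gzmb this did not hold in each pattern. It had 429 CPM in cells with Ifng and Tnf alone and 118 in the 9 cells with all 3 genes. The 27 cells with Ifng and Lta alone had 1080 CPM, and cells with Ifng alone had 838. Activation receptors were higher for 1 of 10, which was Cd69, at 797 against 426 CPM (1.87-fold, 1.57 to 2.23). Cycling genes were higher for 1 of 12, where the median log2 ratio over all genes was -0.05. Residency genes, among them Cd69 again, were higher for 3 of 8, with Itgae, the CD103 integrin chain, at 573 against 576 CPM. Tbx21 was at 226 against 133 CPM.

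**Figure D5:**
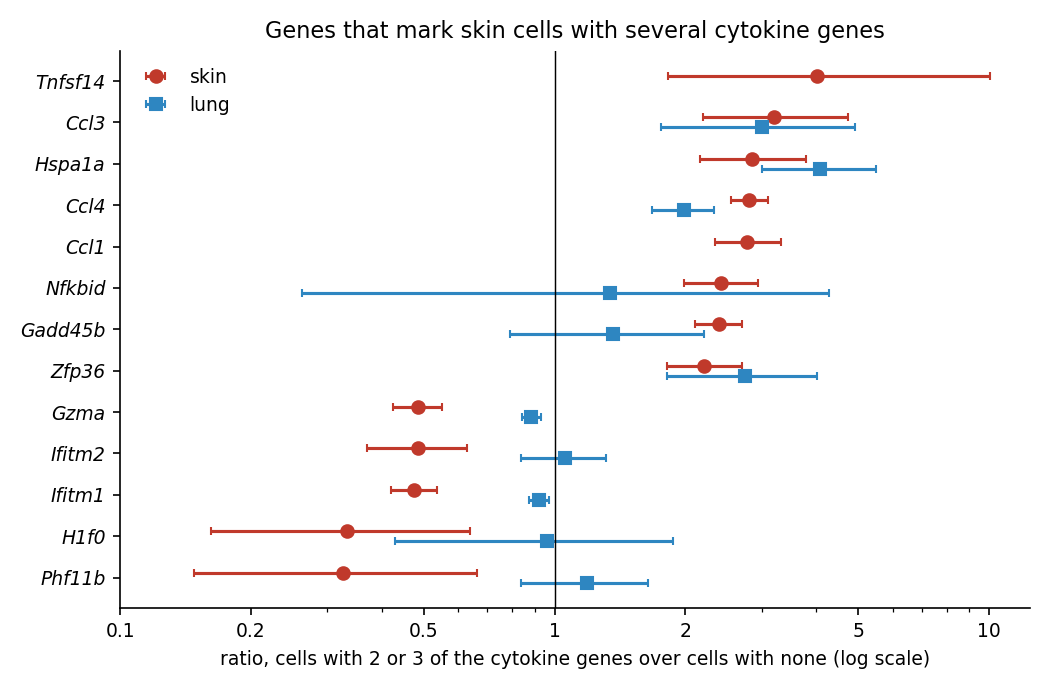
Ratio of pooled levels in cells with 2 or 3 of Ifng, Tnf and Lta over cells with none (horizontal axis, log scale) for the 13 genes that the naming rule gave in skin, with exact 95% intervals, in skin (circles) and lung (squares). Ccl3, Ccl4, Hspa1a and Zfp36 lie above 1 in both tissues, the lung intervals of Nfkbid, Gadd45b, Ifitm2, H1f0 and Phf11b hold 1, and Ccl1 and Tnfsf14 have no lung value.

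In lung the comparison had 78 cells with several of the genes and 1115 with none. Since the lung shares of Tnf and Lta were not above that of Lyz2, these values describe cells by their counts and do not show that a cell expressed several of the genes. Of 6303 genes compared, 6.24% were at least 2-fold higher and 8.27% at least 2-fold lower. Named as higher were Ccl3 (3.01-fold, 1.76 to 4.91), Zfp36 (2.74-fold, 1.82 to 4.02), Fos (2.84-fold, 1.89 to 4.15) and Nfkbia, the inhibitor of NF-kB (2.40-fold, 2.01 to 2.84). The kinase genes Pim2 (3.26-fold, 2.04 to 5.03), Pim3 (4.02-fold) and Cdk5 (4.29-fold) and the cytokine signaling inhibitor Cish (2.89-fold) were also named, Pim3 and Cdk5 from 9 counts each. Hspa1a was 4.08-fold higher (3.00 to 5.49) and Ccl4 1.98-fold (1.68 to 2.32). Ccz1, Usp3, Fkbp2, Derl1 and Cd7 were named as lower from 1 to 6 counts in the cells with several. Nr4a1 had 3 counts in those cells and an interval that held equality (0.82-fold, 0.16 to 2.55). Of 4382 genes measured in both tissues, 79 were at least 2-fold higher in skin and 162 in lung. Of these, 12 were shared, which is 15.2% of the 79 and 7.41% of the 162. Liver and lymph node had too few cells with several of the genes to be compared.

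Each gene was then taken alone in skin, a set of contrasts chosen after values had been seen, and the 3 did not have the same companions. Cells with Ifng had 5.86-fold more Ccl3 (4.28 to 8.22), 2.55-fold more Hspa1a (2.05 to 3.20), 2.09-fold more Ccl4 (1.93 to 2.26) and 1.53-fold more Tbx21 (1.20 to 1.96) than cells without, where 2.72% of genes were at least 2-fold higher and 2.17% lower. The Ccl3 level rested on few cells, since the 102 cells with 10 or more Ifng counts held 430 of its 611 counts and 1 of them held 153. The shares of cells with Ccl3, 13.2% (10.9 to 15.8) and 8.04% (5.27 to 11.6), overlapped. Cells with Tnf had 2.99-fold more Tnfsf14 (1.78 to 5.02) and 1.47-fold more Ccl4 (1.39 to 1.56), where 1.55% of genes were at least 2-fold higher. Among genes lower in cells with Tnf, where 4.21% of all genes were at least 2-fold lower, were 2 granzymes and 2 receptors. Gzma was 2.07-fold lower and found in 23.0% against 29.6% of cells, and Gzmb was 1.92-fold lower, in 28.8% against 38.9%. Pdcd1, which encodes the inhibitory receptor PD-1, was 1.72-fold lower, in 19.8% against 30.3%. Tnfrsf9, which encodes the costimulatory receptor 4-1BB, was 2.82-fold lower in level. Its shares, 3.96% (11 cells, 1.99 to 6.97) against 7.58% (5.85 to 9.63), overlapped.

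In the 56 skin cells with Lta, Tnfrsf9 was higher. Tnfrsf9 was found in 23.2% of them (13.0 to 36.4) and 5.74% of the other skin cells (4.40 to 7.35), and was 5.97-fold higher in level (3.71 to 9.31). The NF-kB genes Nfkb2, at 3.86-fold (2.10 to 6.68) and 28.6% against 6.72% of cells, and Nfkb1, at 2.68-fold (1.70 to 4.06) and 33.9% against 14.6%, were higher as well. Here 10.8% of genes were at least 2-fold higher. Ltb was 1.85-fold higher (1.53 to 2.22) and found in 69.6% against 54.6% of cells. Xcl1, which encodes a chemokine for cross-presenting dendritic cells, was found in 39.3% against 20.4% of cells and Ccl1 in 30.4% against 15.5%. Klf2, a factor of recirculating T cells, was found in 5.36% against 17.4% and was 4.93-fold lower, with 8.81% of genes at least 2-fold lower. Cd40lg, the CD40 ligand gene, was found in 7.14% (1.98 to 17.3) against 21.0% (18.6 to 23.7). Fos was 1.76-fold lower. Gzmb had 1826 CPM in the 18 cells with Lta alone and 1080 in the 27 with Ifng and Lta alone, against 726 in cells with none. It had 118 CPM in the 9 cells with all 3 genes and 0 in the 2 with Tnf and Lta alone. Csf2, at 9.35-fold, rested on 1 cell with 24 of its 26 counts and was found in 3.57% against 3.41% of cells.

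Skin cells were also divided by single genes listed for this purpose. Ifng was found in 73.8% of cells with Nr4a1 (70.9 to 76.6) and 56.6% of cells without (48.5 to 64.4), and in 82.5% of cells with Hspa1a (76.6 to 87.3) against 68.6% (65.4 to 71.6). Tnf was found in 27.6% of cells with Nr4a1 (24.7 to 30.6) and 14.5% without (9.40 to 20.9). It was found in 18.4% of cells with Pdcd1 (14.2 to 23.3) against 28.4% (25.3 to 31.7), and in 20.4% of cells with Gzmb (16.5 to 24.7) against 28.7% (25.3 to 32.2). Shares were close by Itgae, with Ifng in 71.1% and 71.6% and Tnf in 25.9% and 25.3% of cells with and without it. Within cells with Nr4a1, Tnf was found in 31.1% of those with Ifng (27.6 to 34.7) and 17.8% of those without (13.2 to 23.2). Within cells lacking Nr4a1 the shares were 18.9% (11.4 to 28.5) and 8.70% (3.26 to 18.0). In lung, Lta was found in 1.76% of cells with Gzma (1.21 to 2.46) and 10.9% of the 174 cells without (6.70 to 16.5), and Ifng in 49.6% of cells with Ccl4 (46.3 to 52.9) against 35.3% (32.5 to 38.2).

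At equal depth, cells without Nr4a1 were 14.7% of skin, 95.8% of lung, 78.1% of liver and 98.2% of lymph node cells. Cells without Hspa1a were 80.5%, 95.5%, 81.9% and 94.4% in turn, so skin and liver were close for Hspa1a. The levels were also taken in cells with no count of either gene, which were 134 skin, 1875 lung, 331 liver and 1385 lymph node cells. Skin was again highest for Ifng and lymph node lowest, but lung and liver, which did not differ over all cells, lay apart. Its share was 53.0% in skin (44.2 to 61.7), 41.5% in lung (39.3 to 43.8), 31.7% for liver (26.7 to 37.0) and 21.8% for lymph node (19.7 to 24.1). Pooled, Ifng had 2149 CPM in these skin cells (1972 to 2337), and 395 (lung, 375 to 416), 264 (liver, 226 to 308) and 170 CPM (lymph node) in the others. The skin level came from 543 counts in 71 cells. Over all skin cells at equal depth it was 2036 CPM, from 4158 counts in 772 cells, so the level did not fall with the share. Tnf was found in 12.7% (7.57 to 19.5), 5.17%, 4.23% and 3.90%. The skin share of Tnf was thus 12.7% in these cells and 25.7% in all skin cells, while the share in lymph node was 3.90% and 4.08%.

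Across the 4 tissues, the likeness of every gene's pattern to that of each cytokine gene was measured as the sum of absolute differences in centered log2 CPM, over 2994 genes with at least 50 CPM in some tissue. With 4 points that share their libraries this is a description. Ccl3 (0.38), Egr1 (0.43), Fam110a (0.46), Prr7 (0.48) and Nfkbia (0.79) were closest to Ifng. Csrnp1 (0.53), Cd69 (0.56), Fam110a (0.66), Nfkbia (0.67) and Zfp36 (0.69) were closest to Tnf, and Ifng and Tnf differed by 1.10. Closest to Lta were Gpaa1 (0.21), Ass1 (0.23), Itgae (0.41), the predicted gene Gm28875 (0.47) and the ribosomal protein gene Rpl35 (0.49), while Ifng lay at 4.03 and Tnf at 2.93.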

How the data were processed

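The deposited counts are whole numbers in a single table of 9223 genes by 5727 cells, made with Bowtie and RSEM against mm10, per the submitters' processing notes, without versions. The sources used here do not say if molecular identifiers were counted or how cells and genes were filtered. Columns were assigned to tissues by their name, and the number of columns that matched none was 0. The 4 samples of a tissue could not be told apart in the columns, so each tissue was 1 library.

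For pooled levels (CPM), a gene's summed counts in a tissue were scaled to a total of 1000000. Intervals are exact 95% intervals: Poisson for levels, conditional binomial for ratios and Clopper-Pearson for shares. For shares, each cell was thinned at random to 1886 counts (percentile 10 of all cells' totals), and shallower cells were left out. Genes with at least 20 summed counts were compared, and a ratio of at least 2 was called. In each tissue with at least 50 cells with 2 or 3 of the cytokine genes, the 8 genes with the lower bound farthest above 1 and the 5 with the upper bound farthest below 1 were named. These had to reach 50 CPM and be found in 10% of the cells of the higher group, and ribosomal, mitochondrial, receptor segment, immunoglobulin and predicted genes were left out. For likeness, the 5 closest genes that reached 50 CPM in some tissue were named, and members of listed sets could also be named. The genes and lists were chosen with earlier results of these data known, as lists of textbook genes.

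Scrublet, run in scanpy 1.11.5, called 62 doublets (1.08%), which were kept in the results and left out in an alternative. Contrasts by a single cytokine gene, values without the top cell and the count without Lta were added after seeing the data. The ratio and thinning procedures were tested on simulated data. Python 3.11.15, numpy 2.4.6, scipy 1.17.1 and pandas 2.3.3 were used. Sequences came from RefSeq (GRCm38.p6) and GENCODE M21. Protein sequences were not used here.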

Additional observations from a re-analysis of the deposited data

How the results depend on the processing

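No paired analysis was possible because each tissue is 1 library and the columns carry no replicate number, and for the same reason no replicate could be left out. Leaving out doublet calls, cycling cells or cells with a shared barcode, or drawing the thinning again, moved none of the ratios, shares or counts computed under them. Shares of cells follow depth. Without thinning, Ifng was found in 75.9% of skin, 55.1% of lung, 50.2% of liver and 27.9% of lymph node cells, Tnf in 31.0%, 9.82%, 9.17% and 6.15%, Lta in 7.11%, 4.01%, 3.42% and 6.46%, and at least 2 of the genes in 30.2%, 8.05%, 5.94% and 3.82%. Thinned to 1000 counts, the shares in the same order were 56.0%, 28.4%, 23.8% and 14.3% for Ifng, 15.0%, 3.40%, 2.34% and 2.51% for Tnf, 11.9%, 1.64%, 1.08% and 1.19% for at least 2 genes, and for Lta 3.29% in skin, 1.89% in lung and 2.88% in lymph node. Asking for 2 counts gave 50.9%, 17.4%, 16.4% and 5.69% for Ifng, 6.74%, 0.439%, 0.378% and 0.335% for Tnf, 0.923%, 0.390%, 0.189% and 0.870% for Lta, and 5.08%, 0.342%, 0% and 0% for at least 2 genes. Scaling by the median of gene ratios, which moves all genes by 0.40 (log2) in lung over lymph node, put Ifng at 15.0-fold for skin over lymph node, 4.92-fold over lung and 5.02-fold over liver, and at 3.05-fold and 2.98-fold for lung and liver over lymph node. Tnf was then 5.10-fold for skin over lung and 1.87-fold for lung over lymph node, and the Lta ratio of lung over lymph node 0.637. With each cell counted equally, Ifng in skin was 11.4-fold over lymph node, 4.84-fold over lung and 5.13-fold over liver, and Lta 1.86-fold over lung. Totals without ribosomal and mitochondrial genes gave 5.24-fold over lung and 5.45-fold over liver for Ifng, and leaving out the top cell gave 5.35-fold over lung. The number of genes that mark cells with several of the cytokines depended on the rule. In skin 92 were at least 2-fold higher and 108 lower. Counts as deposited gave 231 higher, cells with Ifng alone 165 higher, and no minimum count 699 higher and 1051 lower. In lung, 393 higher and 521 lower became 94 and 284 with deposited counts and 50 and 118 with Ifng alone, and the number higher became 2500 with no minimum and 695 without Lta. Directions turned for Ccl1 in skin without Lta (a ratio of 0.533), where cells with Lta alone joined the reference. They also turned for Cd7 (1.15-fold higher) and Fkbp2 (1.10-fold higher) in lung with deposited counts. With Ifng alone they turned in lung for Ccz1 (1.04-fold higher) and Pim2 (a ratio of 0.600). The cause was not tested.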

Other observations

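Partner genes were also counted in cells with and without each cytokine gene, and no difference between the tissues was tested. Values are from skin and lung unless another tissue is named. Il2 was found in 24.2% of skin cells with Ifng (21.2 to 27.4) and 15.8% of skin cells without (11.9 to 20.3), and in lung in 3.04% and 2.76%. Ccl3 was found more often with Ifng in lung, at 10.1% (8.12 to 12.3) against 5.28% (4.08 to 6.70), and Ccl4 at 53.2% (49.8 to 56.6) against 38.7% (35.9 to 41.5), and in skin Ccl4 was at 62.0% against 50.8%. Cd40lg was found in 25.9% of skin cells with Tnf (20.9 to 31.5) and 18.4% of those without (15.8 to 21.2), and in lung in 6.48% (2.65 to 12.9) against 1.75% (1.22 to 2.44). Its shares were 6.25% against 2.01% in liver and 8.20% against 10.7% in lymph node, with overlapping intervals in both. Ltb was found in 84.6% of lung cells with Lta (71.9 to 93.1) against 68.6% (66.5 to 70.6). In skin it was at 69.6% (55.9 to 81.2) against 54.6% (51.5 to 57.7), which overlap. In lymph node it was at 91.0% against 90.6%, and in liver at 77.8% of 9 cells against 63.1%, with overlapping intervals. The lung shares of Tnf and Lta were not shown to be above background, which limits the lung values of Cd40lg and Ltb. Fasl, the Fas ligand gene, was found at 28.1% and 24.4% of skin cells with and without Ifng, with overlapping intervals.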
